A study of Mus musculus with 2 samples.

Results

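The 10 integrin subunits described here are Itga3, Itga5, Itga6, Itga7, Itgav, Itgb1, Itgb3, Itgb4, Itgb5 and Itgb8, which were chosen by gene symbol. They are 10 of the 27 integrin subunit genes and of the 32285 genes counted. The study compared 2 phenotypes of GL261, a mouse glioma cell line of strain C57BL/6 that the labels call an astrocytoma, by single-cell RNA sequencing with the 10x Genomics 3' protocol. One library was made from adherent cells and one from neurosphere cells, so each phenotype is 1 library with no replicate. Adherent cells grew attached in DMEM that held 10% FBS and Penicillin-Streptomycin at 1%, and were harvested with trypsin at about 80% confluency. Neurosphere cells, free-floating aggregates, came from the same serum-containing medium to which B-27 (1:50) and both Epidermal Growth Factor and Fibroblast Growth Factor (20 ng/ml each) had been added, were collected after 12 days, and were dissociated with trypsin and trituration. Both suspensions were frozen in medium with 10% DMSO before library construction. Both phenotypes are therefore one cell line, and attachment, growth factors, time and library cannot be told apart.

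The kept cells numbered 5051 of 5764 called cells in the adherent library and 4276 of 4951 in the neurosphere library. After mitochondrial and ribosomal genes were removed they held 46290996 and 64943938 unique molecular identifiers (UMIs, each a tag for a captured transcript), with medians of 8260 and 13198.5 UMIs per cell and of 2.02% and 3.97% mitochondrial UMIs. The libraries shared 12 barcodes among called cells and 9 among kept cells. Levels are given as CPM, the UMIs of a gene for each 1000000 UMIs of the kept cells. A log2 fold change is the neurosphere CPM over the adherent CPM, and its exact 95% interval, like those of CPM (Poisson) and of shares (Clopper-Pearson), covers counting error only. With 1 library per phenotype no test was run, and no difference was checked against replicates.

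Integrins are cell surface receptors made of an α and a β subunit, and the pair decides which matrix protein the cell can hold. α5 pairs with β1 as the classical fibronectin receptor. α3, α6 and α7 pair with β1 as laminin receptors, and α6 also pairs with β4, which links laminin to keratin filaments in hemidesmosomes. αv binds vitronectin and other proteins that carry the tripeptide RGD, and it pairs with β1, β3, β5, β6 or β8. Outside the cell integrins hold the matrix, and inside it talin and kindlin join their tails to actin. In brain tumours, α6 is known as a surface marker of stem-like cells that grow on laminin, and αvβ8 is known for releasing active TGF-β from its latent complex.

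Promoter sequences were read for the members with an entry in the RefSeq table (build GRCm38.p6, 250 bases before to 50 after an annotated start). Of the 10 members, 6 had an entry, with 7 promoters in all because Itga3 has a pair of them. The 3 below are shown because their genes changed in 3 different ways between the phenotypes: Itgav was lower in neurosphere cells, Itgb1 lay at nearly the same CPM in both, and Itgb8 was higher. Each is written 5′ to 3′ on the strand of its gene, and capitals mark a GC box (GGGCGG or its reverse complement CCGCCC). Itgav lies on the plus strand with its promoter at chr2:83724147-83724446, Itgb1 on the plus strand at chr8:128685404-128685703 and Itgb8 on the minus strand at chr12:119238227-119238526.
Itgav: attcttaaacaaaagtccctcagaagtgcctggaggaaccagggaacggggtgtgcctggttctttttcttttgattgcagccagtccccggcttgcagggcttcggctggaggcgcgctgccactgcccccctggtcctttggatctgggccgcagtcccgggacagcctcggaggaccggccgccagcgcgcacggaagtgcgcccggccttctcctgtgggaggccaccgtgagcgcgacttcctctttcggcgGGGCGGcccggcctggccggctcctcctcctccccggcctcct
Itgb1: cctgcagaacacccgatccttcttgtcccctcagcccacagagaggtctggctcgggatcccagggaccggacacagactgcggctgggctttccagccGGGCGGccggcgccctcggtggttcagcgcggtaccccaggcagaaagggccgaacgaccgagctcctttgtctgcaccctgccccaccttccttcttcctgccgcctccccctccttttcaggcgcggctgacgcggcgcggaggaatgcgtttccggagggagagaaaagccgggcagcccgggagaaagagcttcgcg
Itgb8: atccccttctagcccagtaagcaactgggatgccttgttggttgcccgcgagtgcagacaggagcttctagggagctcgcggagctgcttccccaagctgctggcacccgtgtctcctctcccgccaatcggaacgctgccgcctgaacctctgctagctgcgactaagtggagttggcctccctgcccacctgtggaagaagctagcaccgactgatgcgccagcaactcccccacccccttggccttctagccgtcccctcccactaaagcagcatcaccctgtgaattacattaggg
A GC box stood in 6 of the 7 member promoters, all but that of Itgb8, and in 35.7% of 32851 promoters of this length in the table. The Itgav and Itgb1 promoters were 67.3% G and C, and the Itgb8 promoter was 60.7%, against a median of 52.7% over all promoters. The AP-1 site TGACTCA, searched on both strands, was in none of the 7 and in 5.20% of all promoters. The CRE, TGACGTCA, was in none and in 1.79%, and the TATA box TATAAA was in none and in 13.6%. The TEAD site GGAATG was in the Itgb1 promoter alone and in 14.7% of all. A match is a description of letters, and no match says only that these letters are not in this window.

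All 5 α subunits and 2 of the 5 β subunits were over 2-fold lower in neurosphere cells, while 1 β subunit, Itgb8, was 12.9-fold higher. Itgb1, the common β partner, stayed within 2-fold, as did Itgb5. All 10 members had at least 50 UMIs over both libraries, the minimum set for a comparison. Among the 14654 genes with that many UMIs, 11.7% were over 2-fold lower in neurosphere cells, against 7 of the 10 members, and 21.7% were over 2-fold higher, against 1 of the 10. With no minimum of UMIs, the shares of all genes were 20.5% and 23.2%. The members had a median log2 fold change of -1.45, the α subunits of -1.52 and the β subunits of 0.06, beside a median of 0.32 over all 14654 genes (quartiles -0.32 and 0.90). Summed over all 10 members, the adherent level was 595 CPM and the neurosphere level 563 CPM, of which Itgb1 made up most. Without Itgb1 the sums were 236 and 190.1 CPM, a log2 fold change of -0.31 (-0.35 to -0.28).

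**Figure D1:**
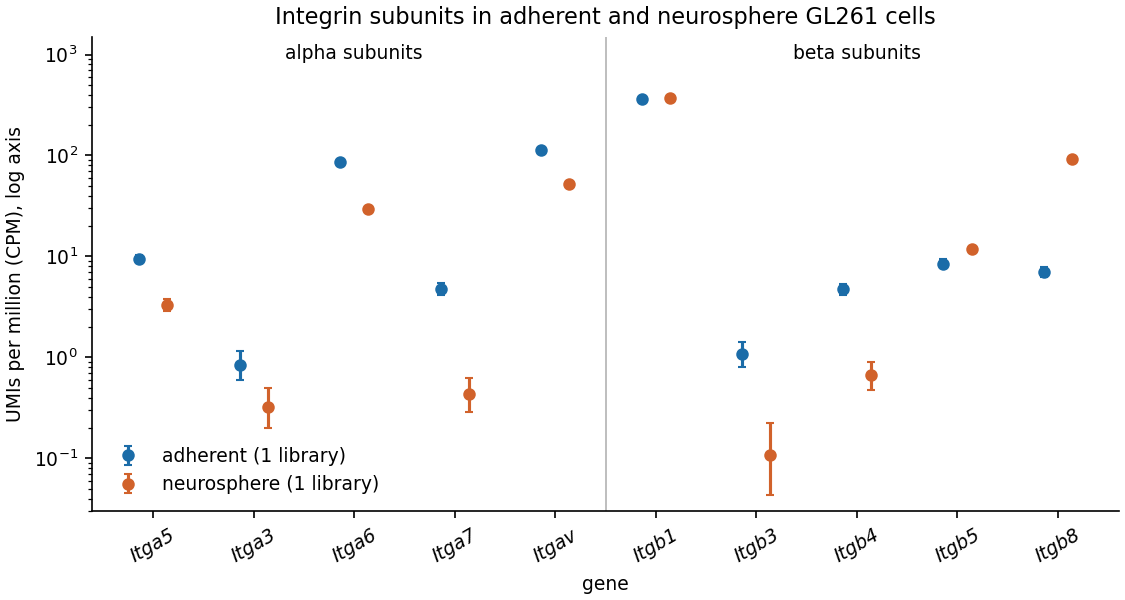
Level of each integrin subunit in CPM on a log axis, with 1 point for the adherent library and 1 for the neurosphere library and bars for the exact 95% Poisson interval (counting error only). All 5 α subunits are lower in neurosphere cells, Itgb8 moves from 7.06 to 91.4 CPM, and Itgb1 lies at 359 and 373 CPM, a difference whose direction turned under TMM scaling and with the GC content trend removed.

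The fibronectin class holds 1 member, Itga5 (ENSMUSG00000000555, chr15:103344286-103366763, minus strand in GRCm38), the α chain of the main fibronectin receptor. The kept adherent cells held 434 Itga5 UMIs (9.38 CPM, 95% interval 8.51 to 10.3), and the neurosphere cells held 213 (3.28 CPM, 2.85 to 3.75). It was lower in neurosphere cells, with a log2 fold change of -1.52 (-1.76 to -1.28), and the intervals of the libraries do not overlap. Few cells of either library gave an Itga5 UMI: 8.04% of adherent and 4.56% of neurosphere cells at full depth. The gene of its ligand moved the same way, as Fn1, which encodes fibronectin, had 2221 UMIs (48.0 CPM) in the adherent library and 604 (9.30 CPM) in the neurosphere library, 5.16-fold lower (log2 -2.37, -2.50 to -2.24).

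The laminin class holds Itga6, Itga3 and Itga7. Itga6 (ENSMUSG00000027111, chr2:71745616-71858416, plus strand) gave most of its UMIs, 3955 in adherent cells (85.4 CPM, 82.8 to 88.1) and 1921 in neurosphere cells (29.6 CPM, 28.3 to 30.9). Its log2 fold change was -1.53 (-1.61 to -1.45), 2.89-fold lower in neurosphere cells. Itga7 (ENSMUSG00000025348, chr10:128933818-128958282, plus strand), the laminin receptor chain best known from skeletal muscle, was among the members with the lowest fold change, with an interval that overlaps that of Itgb3. It had 219 UMIs in adherent cells (4.73 CPM, 4.12 to 5.40) and 28 in neurosphere cells (0.431 CPM, 0.287 to 0.623), 11.0-fold lower (7.38 to 16.9). Among all 14654 genes, 198 genes (1.35%) were lower by at least that fold. Itga7 overlaps the coding gene Mettl7b on the opposite strand, and whether reads were counted by strand is not given in the sources used here. Itga3 (ENSMUSG00000001507, chr11:95044474-95076801, minus strand), an epithelial laminin receptor chain, was close to the limit of detection. It had 39 and 21 UMIs (0.843 CPM in adherent, 0.323 CPM in neurosphere cells), and its log2 fold change of -1.38 had an interval from -2.22 to -0.58, which reaches inside the 2-fold limit. The 3 laminin α chains together reached 91.0 CPM against 30.3 CPM, and the log2 fold change of this sum was -1.58 (-1.66 to -1.51).

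The vitronectin class holds Itgav (ENSMUSG00000027087, chr2:83724397-83806916, plus strand), the αv chain shared by all RGD receptors among the members' pairs apart from α5β1. The adherent cells held 5295 Itgav UMIs (114 CPM, 111 to 118), and the neurosphere cells held 3402 (52.4 CPM, 50.6 to 54.2). It was 2.18-fold lower in neurosphere cells, with a log2 fold change of -1.13 (-1.19 to -1.06). When the total included mitochondrial and ribosomal genes, its log2 fold change was -0.91, inside the 2-fold limit.

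Itgb1 (ENSMUSG00000025809, chr8:128685654-128733200, plus strand) encodes β1, the partner of every α chain in the set. It had 16606 UMIs in adherent cells (359 CPM, 353 to 364) and 24234 in neurosphere cells (373 CPM, 368 to 378). The log2 fold change was 0.06 (0.03 to 0.09), and it turned to -0.16 under TMM scaling and to -0.04 with the GC content trend removed, so no direction is given for it. The α members summed to 215 CPM against 86.0 CPM. For each UMI of these members there were 1.67 Itgb1 UMIs in adherent cells (1.63 to 1.71) and 4.34 in neurosphere cells (4.22 to 4.47). Both ratios depend on which α chains are members. They leave out Itga4 (46.2 CPM against 95.3 CPM), Itga1 (71.7 against 9.96) and Itga8 (44.3 against 1.56), with the adherent level first. No surplus of Itgb1 over all α chains is read from them.

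Itgb4 (ENSMUSG00000020758, chr11:115974709-116008412, plus strand) encodes β4, which pairs only with α6. It had 218 UMIs in adherent cells (4.71 CPM, 4.11 to 5.38) and 43 in neurosphere cells (0.662 CPM, 0.479 to 0.892). In neurosphere cells it was 7.11-fold lower (log2 fold change -2.83, -3.34 to -2.35), a larger difference than that of Itga6. The Itgb4 UMIs for each Itga6 UMI were 0.0551 (0.0479 to 0.0632) in adherent and 0.0224 (0.0161 to 0.0303) in neurosphere cells.

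The other β members pair with αv, and they moved apart. Itgb8 (ENSMUSG00000025321, chr12:119158022-119238802, minus strand), the β chain of the TGF-β releasing receptor, was the only member over 2-fold higher in neurosphere cells. It had 327 UMIs in adherent cells (7.06 CPM, 6.32 to 7.87) and 5936 in neurosphere cells (91.4 CPM, 89.1 to 93.8). Its log2 fold change was 3.69 (3.53 to 3.86), 12.9-fold (11.6 to 14.5), and 367 of the 14654 genes (2.50%) were higher by at least as much. Itgb5 (ENSMUSG00000022817, chr16:33829665-33949338, plus strand), a vitronectin receptor chain, was modestly higher, with 393 UMIs in adherent cells (8.49 CPM, 7.67 to 9.37) and 774 in neurosphere cells (11.9 CPM, 11.1 to 12.8). Its log2 fold change of 0.49 (0.31 to 0.67) lay within 2-fold and close to the median of all genes. Itgb3 (ENSMUSG00000020689, chr11:104608000-104670476, plus strand), the β chain of the vitronectin receptor αvβ3 that is known from endothelium and platelets, was rare in both. It had 50 UMIs in adherent cells (1.08 CPM, 0.802 to 1.42) and 7 in neurosphere cells (0.108 CPM, 0.0433 to 0.222), with a log2 fold change of -3.33 (-4.71 to -2.18). With cells thinned to 5000 UMIs its log2 fold change was -4.77, on 1 neurosphere UMI. The remaining αv partner, Itgb6, is not a member and was looked up after its values were seen: the adherent cells held 81 UMIs of it and the neurosphere cells 3.

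**Figure D2:**
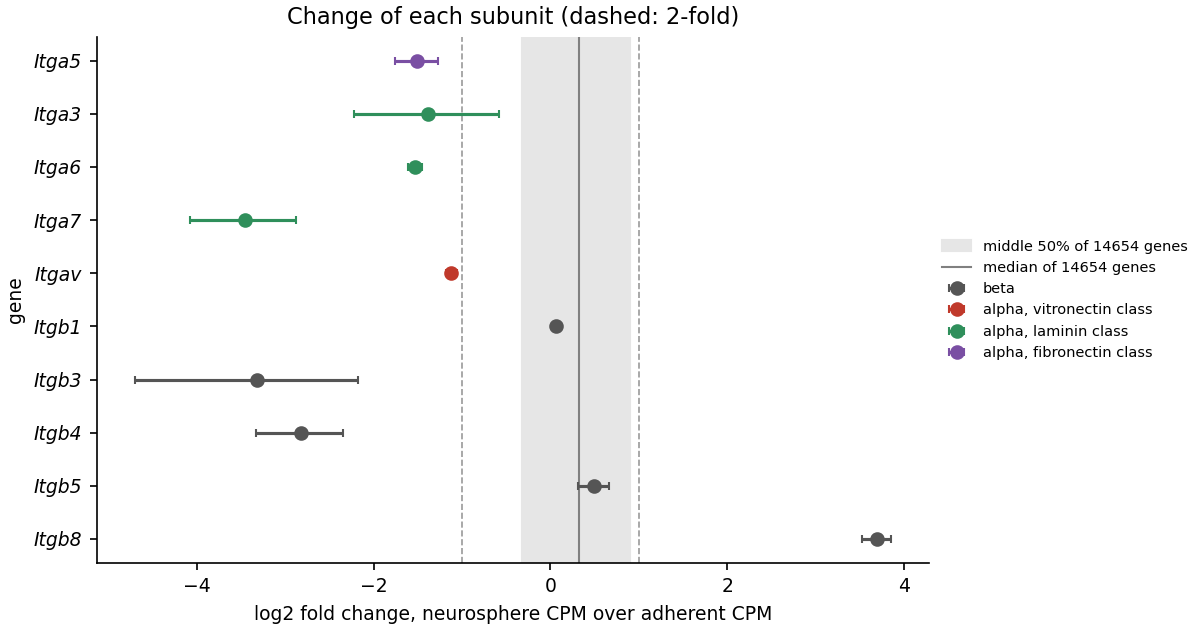
Log2 fold change of each subunit (neurosphere CPM over adherent CPM), with exact 95% intervals for counting error, coloured by ligand class for α chains; the grey band holds the middle 50% of 14654 genes and dashed lines mark 2-fold. The 5 α chains, Itgb3 and Itgb4 lie left of the lower dashed line, with the interval of Itga3 crossing it, and Itgb8 lies alone on the right at 3.69. Itgb1, at 0.06, moved to -0.16 under TMM scaling and to -0.04 with the GC content trend removed.

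Among the 5 α members, the make-up changed less than the amount. Of the UMIs of these 5 genes, the fibronectin class took 4.37% in adherent cells (3.97 to 4.79) and 3.81% in neurosphere cells (3.33 to 4.35), and these intervals overlap. The laminin class took 42.4% (41.4 to 43.4) and 35.3% (34.0 to 36.5). The vitronectin class took 53.3% (52.3 to 54.2) and 60.9% (59.6 to 62.2), so the share of Itgav was higher and that of the laminin receptors lower in neurosphere cells, with all 3 classes lower in CPM. Per kilobase of exons, the same shares were 8.36%, 44.8% and 46.8% in adherent cells and 7.45%, 37.9% and 54.6% in neurosphere cells.

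The make-up of the β members changed more. Itgb1 took 94.4% of the β UMIs in adherent cells (94.0 to 94.7) and 78.2% in neurosphere cells (77.7 to 78.7), while Itgb8 took 1.86% (1.66 to 2.07) and 19.2% (18.7 to 19.6). Among the β members that pair with αv but not with the other α members (Itgb3, Itgb5 and Itgb8), Itgb5 led in adherent cells with 51.0% of UMIs (47.4 to 54.6), and Itgb8 followed with 42.5% (39.0 to 46.1). In neurosphere cells Itgb8 held 88.4% (87.6 to 89.1), Itgb5 11.5% (10.8 to 12.3) and Itgb3 0.104% (0.0419 to 0.215). Per kilobase of exons, a division that need not correct UMIs, the share of Itgb8 among these 3 genes was 19.9% in adherent and 71.0% in neurosphere cells. For each Itgav UMI there were 0.0618 Itgb8 UMIs in adherent cells (0.0551 to 0.0691) and 1.75 in neurosphere cells (1.67 to 1.82), as the αv chain was lower and its β8 partner higher.

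**Figure D3:**
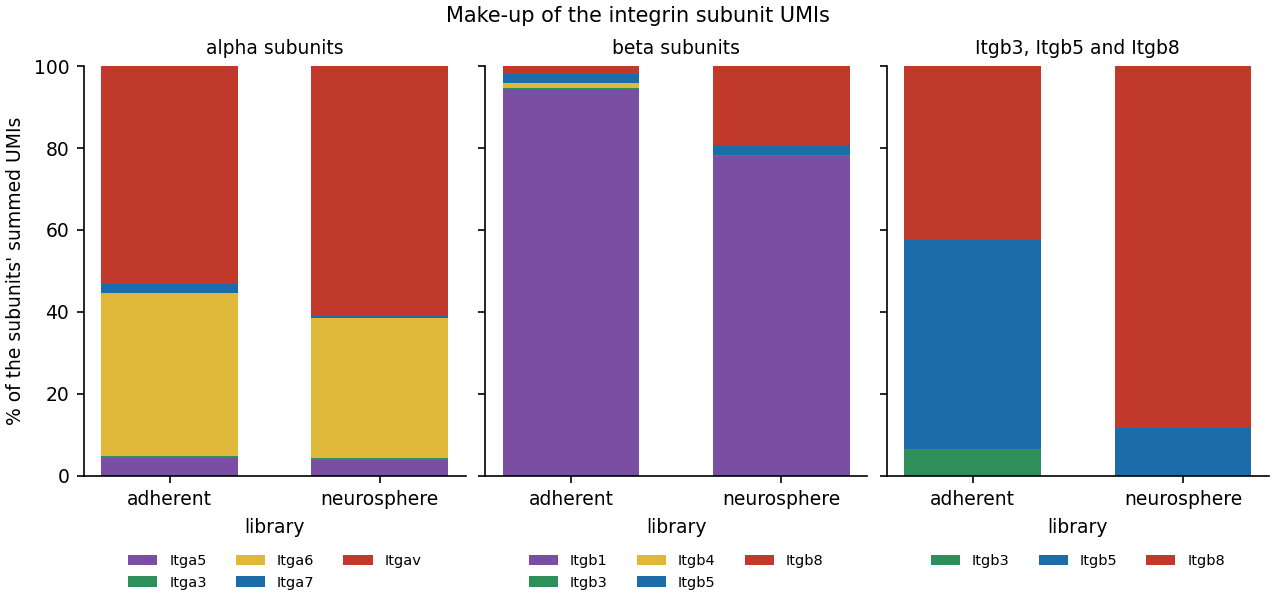
Share (%) of the summed UMIs that each subunit took in the adherent and the neurosphere library, for the 5 α chains, the 5 β chains, and Itgb3, Itgb5 and Itgb8 alone. Itgav and Itga6 fill most of the α bar in both libraries, while Itgb8 goes from 1.86% to 19.2% of the β bar and from 42.5% to 88.4% of the last.

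The share of cells with a UMI depends on depth, so each kept cell was also thinned to 5000 UMIs. Too few UMIs for this were held by 587 adherent and 80 neurosphere cells, which were left out. Itgb8 was found in 3.34% of thinned adherent cells (2.83 to 3.91) and in 34.7% of thinned neurosphere cells (33.3 to 36.2). At full depth the shares were 5.96% and 59.4%, so the difference was there at equal depth. Itgb1 was found in 78.5% of thinned adherent cells (77.3 to 79.7) and 78.3% of thinned neurosphere cells (77.1 to 79.6), although the shares at full depth were 89.6% and 95.9%. Itgav was found in 40.4% (39.0 to 41.9) and 22.7% (21.5 to 24.0) of thinned cells, and Itga6 in 32.4% (31.0 to 33.7) and 13.3% (12.3 to 14.4). At full depth those shares were 57.4% and 47.3% for Itgav and 48.1% and 32.0% for Itga6, so for these α chains the gap was wider at equal depth. Itgb5 was found in 3.90% (3.35 to 4.51) and 5.60% (4.92 to 6.34) of thinned cells, and the other 5 members in at most 4.23% of adherent and 1.41% of neurosphere cells. Neither library holds a cell type that lacks integrins, so no background share from free RNA could be set beside these.

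Cells with a UMI of any of the 5 α members made up 61.6% of thinned adherent and 33.7% of thinned neurosphere cells. Other α chains are not in these shares, such as Itga4 (17.8% and 28.2% of thinned cells), Itga1 (25.6% and 4.31%) and Itga8 (19.6% and 0.691%). Cells with any of Itgb3, Itgb5 and Itgb8 made up 7.71% and 38.4%. Of these 3 β chains, Itgb8 and Itgb5 were found in a larger share of thinned neurosphere cells, and Itgb3 in a smaller one (0.65% of adherent and 0.0238% of neurosphere cells, the latter 1 cell). A thinned cell gave UMIs of a median of 2 members in both libraries and of at most 5.

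Detection of a pair in the same cell was close to what the single shares multiply to. Itgav and Itgb8 were found together in 1.55% of thinned adherent cells (1.21 to 1.95) beside a product of 1.35%, and in 8.08% of neurosphere cells (7.27 to 8.95) beside 7.88%. Itga6 and Itgb1 were found together in 26.6% (25.3 to 28.0) beside 25.4%, and in 11.0% (10.0 to 12.0) beside 10.4%. Itga6 and Itgb4, the hemidesmosome pair, were found together in 0.874% (0.622 to 1.19) and 0.0715% (0.0147 to 0.209), where the latter is 3 of 4196 cells. Across cells the members were nearly unrelated: the Pearson r of log2(UMIs + 1) lay between -0.05 and 0.16 for all 45 pairs in each library, the highest being Itgb1 with Itgb8 in neurosphere cells (0.16, 4196 cells). The cells share a library and were thinned to one depth, and counts this sparse hold correlations near 0.

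The spread among thinned cells was read from the Fano factor. The Fano factor, the variance of a gene's UMIs over their mean, which is about 1 for counting error alone, was 1.46 for Itgb1 in adherent and 2.18 in neurosphere cells, and 1.12 and 1.60 for Itgb8. The Fano factor lies near 1 for a gene with few UMIs, and the mean of Itgb8 was 0.0363 UMIs in adherent and 0.542 UMIs in neurosphere cells. For Itgav it was 1.29 and 1.32, and for Itga6 1.15 and 1.14, where the means differed between the libraries too, so no difference or likeness in spread is read from these values.

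Each library was clustered on its own, which gave 10 clusters in each, numbered from 0. Clusters were built from all variable genes of the same cells, so their levels are a description with no test, and they are called by their leading genes. Cluster 9 of the adherent library stands apart: its 48 cells had a median of 2624 UMIs and 12.3% mitochondrial UMIs, were led by Lars2, and held the highest adherent levels of Itga5, Itga6, Itgav, Itgb1, Itgb5 and Itgb8. The ranges below therefore cover the 9 clusters of each library with at least 100 cells, a limit added after the data were seen. That limit also leaves out the 75 cells of neurosphere cluster 9, led by Cxcl2, where Itgb5 had its highest level (45.2 CPM, 32.3 to 61.6).

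Itgb8 lay between 2.93 and 20.7 CPM over the adherent clusters and between 27.9 and 208 CPM over the neurosphere clusters, so every neurosphere cluster was above every adherent cluster of that size, although the intervals of the nearest pair (15.9 to 26.4 and 24.7 to 31.3 CPM) overlap. Of the 14654 genes, 17.7% had every such neurosphere cluster above every such adherent cluster, and 7.84% had every one below. With the small clusters counted, adherent cluster 9 (75.4 CPM, 36.2 to 139, on 10 UMIs) overlapped them. The highest neurosphere levels were in cluster 1, led by the cartilage gene Comp (208 CPM, 196 to 221), and cluster 6, led by Enpp2, Dusp15 and the myelin gene Mbp (195 CPM, 181 to 210). The lowest was in cluster 5, led by Wnt7b and Prss56 (27.9 CPM, 24.7 to 31.3). In adherent cells the highest was cluster 6, which Tex14 helps to lead, with 20.7 CPM (15.9 to 26.4) against at most 8.38 CPM in the other 8 clusters. Depth moved with these levels, as neurosphere clusters 1 and 6 had medians of 7623 and 8270 UMIs per cell and cluster 5 of 21048, and its part in them was not tested. The epithelial keratin Krt8 did not follow Itgb8, with 7252 CPM in cluster 1, 536 CPM in cluster 6 and 2818 CPM in cluster 5.

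Itga6 went the other way, between 54.8 and 108 CPM over the adherent clusters and between 22.2 and 37.9 CPM over the neurosphere clusters, with every neurosphere cluster below every adherent one, as in 7.84% of all genes compared. The same held for Itga7 (2.24 to 7.82 CPM against 0 to 1.11 CPM), Itgb3 (0.753 to 2.59 against 0 to 0.346) and Itgb4 (2.99 to 6.51 against 0.197 to 1.21 CPM). For these 3 genes the levels rest on few UMIs, and the interval of the lowest adherent cluster overlaps that of the highest neurosphere cluster, as for Itgb3 (0.155 to 2.20 CPM on 3 UMIs against 0.0419 to 1.25 CPM on 2 UMIs). The small clusters overlap for them as well, since neurosphere cluster 9 held 4 Itga7 UMIs (4.52 CPM, 1.23 to 11.6) and adherent cluster 9 held no UMI of Itgb3 or Itgb4. Itgav overlapped between the libraries, from 66.5 to 158 CPM in adherent and from 31.8 to 89.9 CPM in neurosphere clusters. Its highest neurosphere levels were in the Mbp-led cluster 6 (89.9 CPM) and in cluster 4 (81.1 CPM), where Itgb8 was at 195 and 58.3 CPM, and in cluster 1, with the highest Itgb8, Itgav was at 50.7 CPM. Itgb1 also overlapped, from 215 to 460 CPM and from 241 to 809 CPM, with the highest level in the Comp-led neurosphere cluster 1 and the lowest neurosphere level in cluster 5. Itga5 overlapped too, and over the neurosphere clusters it lay between 0.545 CPM (0.0660 to 1.97) in cluster 6 and 6.64 CPM (5.13 to 8.44) in cluster 5, with cluster 4 close to the latter (6.40 CPM, 4.5 to 8.82). Itga3 and Itgb5 overlapped as well.

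**Figure D4:**
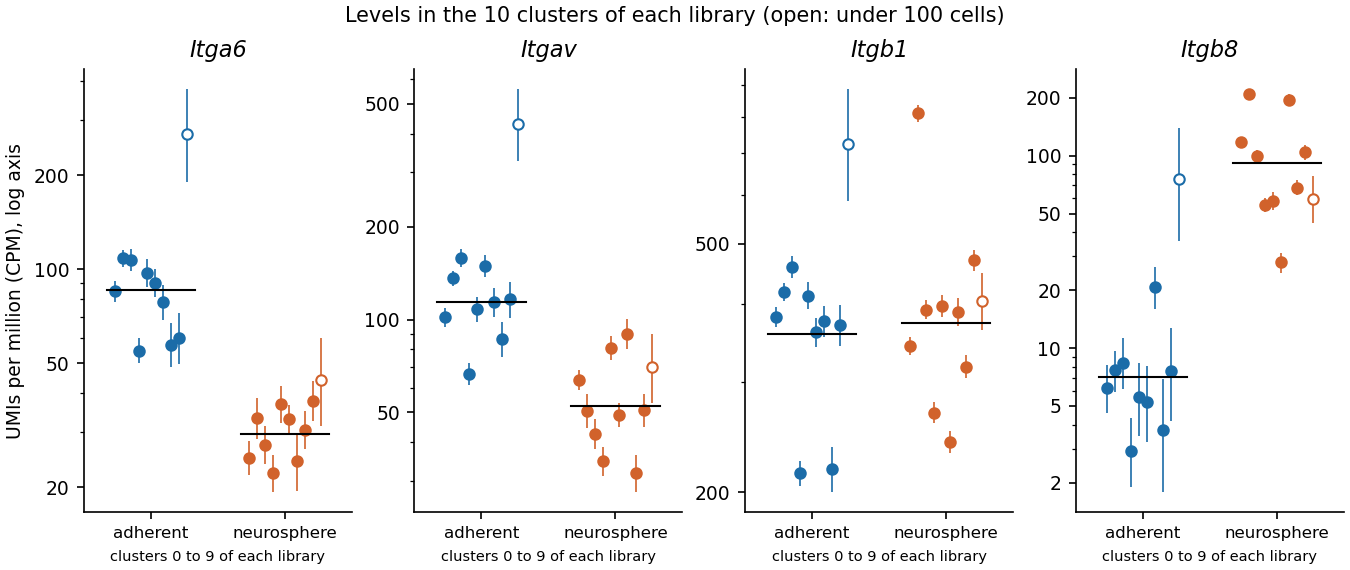
Level of Itga6, Itgav, Itgb1 and Itgb8 in CPM on log axes in the 10 clusters of each library (points, ordered 0 to 9, with exact 95% Poisson intervals), with the whole library as a black line and open points for clusters under 100 cells. Filled points of Itga6 and Itgb8 do not overlap between the libraries, those of Itgav and Itgb1 do, and the open adherent point is the 48-cell cluster.

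The genes whose level over the clusters was most like a member's were sought among genes with at least 500 UMIs in that library, by Pearson r of log2(CPM + 1). In neurosphere cells, over 10 clusters and 9439 genes, Itgb8 was most like Epn2 (r = 0.994) and Ppp6r2 (0.992), and over the 9 larger clusters the same 2 genes led (0.994 and 0.996). Itgav was most like Btbd3 (0.964) and Abl2 (0.940), Itgb1 like Osbpl6 (0.971) and Ccdc6 (0.970), Itga6 like Adgrv1 (0.915) and Camk1d (0.912), and Itgb5 like Aptx (0.956) and Amz1 (0.940). None of those 8 genes was among the first 2 over the 9 larger clusters, where Itgav was most like Myo10 (0.968) and Tns3 (0.967). In adherent cells, over 10 clusters and 7854 genes, Itga6 was most like Suco (0.991) and Rnf217 (0.990), Itgav like Rasa2 (0.997) and Xylt1 (0.997), and Itgb1 like Nedd4 (0.989) and Trim25 (0.986). Over the 9 larger adherent clusters Itgav kept Rasa2 (0.991) and Xylt1 (0.990), Itga6 kept Suco (0.973), and Itgb1 was most like Uri1 (0.996) and Nf1 (0.995). Each is the highest r out of all those genes over few clusters of one library that differ in depth.

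Of the 17 other integrin subunits, 13 had at least 50 UMIs, with a median log2 fold change of -0.81. Of these 13, 6 were over 2-fold lower and 3 over 2-fold higher in neurosphere cells. The shares over all genes, for this and each list below, are 11.7% and 21.7%. Among the higher genes, Itga9 (21 adherent and 82 neurosphere UMIs) and Itga11 (14 and 95) reached the minimum through the neurosphere library. Among the lower ones, Itgb6 (81 and 3) reached it through the adherent library. Under TMM scaling the counts were 7 and 2, and the higher count was also 2 with thinned cells. For these subunits and the genes of the lists that follow, a pair of CPM values gives the adherent level and then the neurosphere level. The parentheses hold the log2 fold change with its 95% interval. Itga8, an RGD receptor chain, had 44.3 and 1.56 CPM (-4.83, -5.14 to -4.54). The collagen receptor chain Itga1 had 71.7 and 9.96 CPM (-2.85, -2.97 to -2.73). Itga4, a chain that binds fibronectin and VCAM1, was higher in neurosphere cells, with 46.2 and 95.3 CPM (1.04, 0.97 to 1.11). Itga2b, known from platelets, had 5.92 and 1.56 CPM (-1.93, -2.27 to -1.59).

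The ligand genes were compared in the same way. Of 11 laminin chains, 8 had at least 50 UMIs, of which 4 were over 2-fold lower and 0 higher, with a median of -1.19. Lama4 had 69.1 and 22.6 CPM in adherent and neurosphere cells (-1.61, -1.70 to -1.52) and Lamb1 24.1 and 6.58 CPM (-1.87, -2.04 to -1.71), while Lamc1, the γ chain of most laminins, had 26.4 and 23.6 CPM (-0.16, -0.27 to -0.06). Lamb2 had 3.65 and 4.74 CPM (0.38, 0.10 to 0.66).

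Vtn, which encodes vitronectin itself and is named for that although the rule did not pick it, had 0 UMIs in adherent cells, where the floor of 3 counts is 0.0648 CPM, and 1 UMI in neurosphere cells; both media hold serum. Of 19 vitronectin-like and other RGD proteins, 17 were in the files and 12 had at least 50 UMIs, with 5 over 2-fold lower, 1 higher and a median of -0.23. Fbn2, a fibrillin, had 126 and 14.2 CPM (-3.15, -3.25 to -3.05), and Spp1, osteopontin, had 56.9 and 10.3 CPM (-2.46, -2.58 to -2.34). Thbs2, a thrombospondin, had 18.7 and 3.56 CPM (-2.39, -2.61 to -2.18), and the matricellular gene Ccn1 had 44.8 and 21.6 CPM (-1.05, -1.15 to -0.95). Mfge8, a bridge between αv integrins and dying cells, had 37.3 and 60.4 CPM (0.70, 0.61 to 0.78), and Edil3, of the same family, had 23.2 and 35.3 CPM (0.60, 0.50 to 0.71). The 1 higher gene, Fbn1, reached the minimum through the neurosphere library (33 adherent and 98 neurosphere UMIs). The count of 1 higher gene became 0 under 4 of the 11 alternatives.

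Of 30 activators and adaptors, 29 had at least 50 UMIs, with 4 over 2-fold lower, 4 higher and 21 within 2-fold, and a median of 0.45 that lay near the 0.32 of all genes. With the GC content trend removed, and with thinned cells, 3 were lower and 6 higher, and under TMM scaling 4 and 3. Ptk2, focal adhesion kinase, had 82.2 and 116 CPM (0.49, 0.44 to 0.55), Rap1a 150 and 205 CPM (0.45, 0.40 to 0.49), Rap1b 128 and 186 CPM (0.54, 0.49 to 0.58), and the actin crosslinker Actn4 148 and 87.4 CPM (-0.76, -0.81 to -0.71). A few stood far from the rest of the list. Rasgrp2, an exchange factor that activates Rap1, had 17.8 and 0.246 CPM (-6.18, -6.99 to -5.47). Apbb1ip, the Rap1 effector that recruits talin, had 11.9 and 87.7 CPM (2.89, 2.76 to 3.02), and Lims2, a PINCH adaptor of integrin-linked kinase, had 0.346 and 33.5 CPM (6.60, 5.90 to 7.41). Lims2 reached the minimum of 50 UMIs through the neurosphere library (16 adherent and 2177 neurosphere UMIs), and Rasgrp2 through the adherent one (825 and 16).

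The hemidesmosome partners of α6β4 did not move together. Plec, plectin, had 146 and 46.9 CPM (-1.64, -1.70 to -1.58), and Col17a1, the collagen of hemidesmosomes, had 0.346 and 19.7 CPM (5.83, 5.13 to 6.64). Col17a1 reached the minimum of 50 UMIs through the neurosphere library, with 16 UMIs in adherent and 1278 in neurosphere cells. Dst had 110 and 208 CPM (0.92, 0.87 to 0.96) and the tetraspanin Cd151 71.0 and 122 CPM (0.78, 0.73 to 0.84), so of these 4 genes 1 was over 2-fold lower and 1 over 2-fold higher, beside lower Itga6 and Itgb4. The count of higher partners was 2 with thinned cells and 3 when the total included mitochondrial and ribosomal genes.

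Of the 9 membrane partners, 2 were over 2-fold lower (3 under 6 of the 11 alternatives), 2 higher (1 under TMM scaling) and 5 within 2-fold. The tetraspanin Cd81 had 138 and 6682 CPM (5.60, 5.56 to 5.63) and was found in 34.4% and 99.4% of thinned cells. Cav1, of caveolae, had 55.3 and 5.45 CPM (-3.34, -3.51 to -3.18) and Sdc4, a heparan sulphate co-receptor for fibronectin, 19.2 and 2.12 CPM (-3.17, -3.44 to -2.91). Cd9 had 2207 and 2759 CPM (0.32, 0.31 to 0.33), Cd63 2327 and 2422 CPM (0.06, 0.05 to 0.07), and Cd47 138 and 226 CPM (0.71, 0.67 to 0.76).

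**Figure D5:**
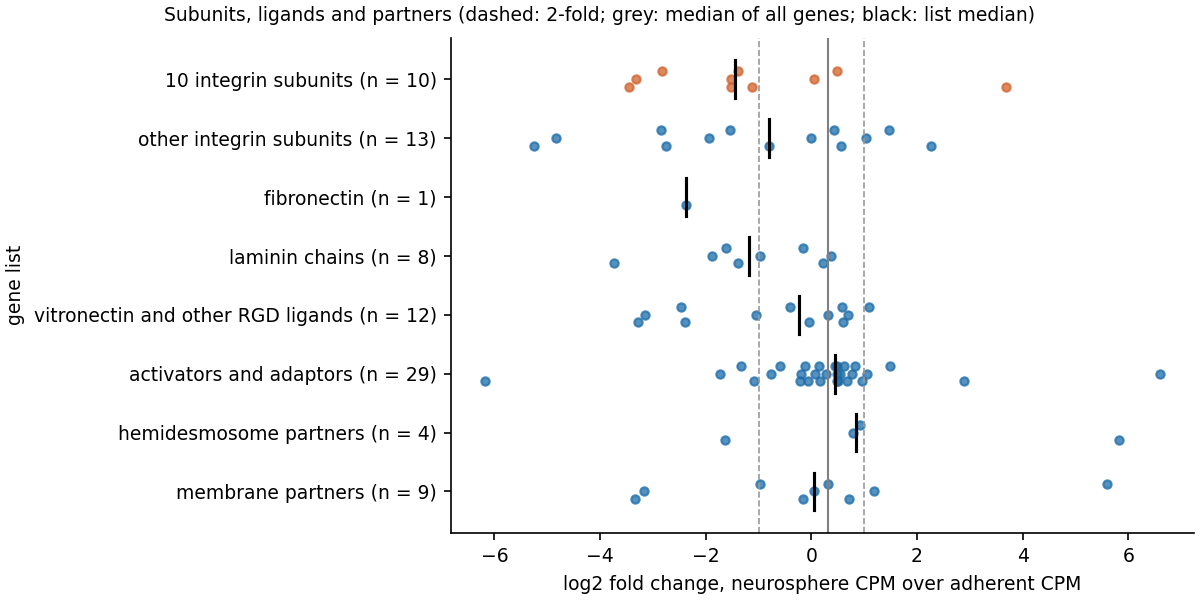
Log2 fold change (neurosphere CPM over adherent CPM) of the 10 integrin subunits and of each gene with at least 50 UMIs in 7 lists of other subunits, ligands and partners, with the list median in black, the median of all genes in grey and 2-fold dashed. The subunits have a median of -1.45, the laminin chains of -1.19 and the activators and adaptors of 0.45.

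Marker genes of cell types were read beside these values. The labels call the line an astrocytoma, and of the 8 astrocyte markers Slc1a3 (370 and 80.5 CPM) and S100b (161 and 255 CPM) were abundant while Aqp4 and Sox9 had no UMI in either library. Of the 5 astrocyte markers with at least 50 UMIs 2 were over 2-fold lower and 0 higher (8 markers summed to 556 and 349 CPM). Of 7 oligodendrocyte lineage markers, 4 were over 2-fold higher and 1, Mbp, was over 2-fold lower at 255 and 124 CPM (775 and 2546 CPM summed). Epithelial markers summed to 25.9 and 3174 CPM, of which Krt8 gave 3025 CPM in neurosphere cells. The 3 epithelial markers with at least 50 UMIs were over 2-fold higher, Krt18 reached that minimum through the neurosphere library (5 and 1692 UMIs), and Cdh1 had 12 and 20 UMIs. Fibroblast markers summed to 3.22 and 387 CPM, with 3 of the 3 that had at least 50 UMIs higher and Lum at 0 in adherent cells. Dcn and Lum reached that minimum through the neurosphere library, and the remaining fibroblast marker, Pdgfrb, had 32 UMIs in the adherent and 4 in the neurosphere library. Immune markers summed to 15.9 and 6.98 CPM with Cd3e and Itgam at 0 in adherent cells and Ptprc at 0 in neurosphere cells, endothelial markers to 1.47 and 3.79 CPM with Cdh5 at 0 in both, neuronal markers to 26.3 and 50.0 CPM with Snap25 at 0 in both, and cell cycle markers to 999 and 1186 CPM. The summed levels of the oligodendrocyte lineage, epithelial, fibroblast, endothelial, neuronal and cell cycle markers were thus higher in the library where Itgb8 was higher. Those of the astrocyte and immune markers were lower there, and the part of any of these markers in the integrin differences was not tested.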

How the data were processed

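The authors deposited, for each of 2 libraries, the raw count of UMIs for each gene in each cell called by Cell Ranger 7.0.1, on mm10 per the submitters' processing notes. Whether reads in introns were counted is not given in the sources used here. From these counts, 13 mitochondrial and 101 ribosomal genes were removed, then cells with under 1000 UMIs or under 1250 (adherent) or 2250 (neurosphere) genes. UMIs were summed over kept cells and given as CPM of all UMIs left. The limits are 2-fold and 50 UMIs over both libraries, and a count of 0 was read as up to 3 counts. No doublets were removed, and leaving out cells over the 95th percentile of UMIs was an alternative. Clusters came from Seurat 5.3.0 under R 4.3.3 (2000 variable genes, 17 PCs for adherent and 18 for neurosphere cells, resolution 1.0), and TMM from edgeR 4.0.16. Gene positions came from GENCODE (GRCm38), where 32235 identifiers matched, with all 10 members. The members, chosen by symbol, and the lists and alternatives were set with earlier results of these data known. From each list the text names the 4 genes with most UMIs and those past 4-fold with at least 500 UMIs over both libraries. Alternatives covered the cell filter, scaling, gene length and GC trends, the mean over cells, thinning to 5000 or 3000 UMIs, and the fold limit. The other steps used scipy 1.17.1, numpy 2.4.6, matplotlib 3.10.9 and pandas 2.3.3 in Python 3.11.15.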

Additional observations from a re-analysis of the deposited data

How the results depend on the processing

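Over 11 alternatives, 9 of the 10 members kept the direction of their log2 fold change, and Itgb1 did not, at -0.16 under TMM scaling and -0.042 with the GC content trend removed. The count of members over 2-fold lower was 7, or 6 when the total included mitochondrial and ribosomal genes (9.38% of all genes), and it was 3 at a 3-fold limit (6.65% of all genes). The count over 2-fold higher was 1 under each alternative, beside 16.1% (TMM scaling) to 29.5% (mitochondrial and ribosomal genes in the total) of all genes. It was also 1 at a 1.5-fold limit (38.2% of all genes) and at a 3-fold limit (10.2%). The median over members lay between -1.67 and -1.23. TMM scaling moved the median of all genes from 0.32 to 0.11 on the log2 scale and the total that included those genes moved it to 0.54, so differences near 0, such as that of Itgb1, follow the scaling. Per kilobase of exons, the fibronectin, laminin and vitronectin shares of the UMIs of the α members were 8.36%, 44.8% and 46.8% in adherent cells. In neurosphere cells they were 7.45%, 37.9% and 54.6%. With the mean of each cell's own CPM, the laminin and vitronectin shares were 41.1% and 54.7% in adherent and 33.6% and 63.0% in neurosphere cells. With cells thinned to 5000 UMIs, the neurosphere fibronectin and vitronectin shares were 3.15% and 62.6%. In each of these the vitronectin share was higher and the laminin share lower in neurosphere cells; the cause was not tested. With 1 library per phenotype there is no replicate to leave out. No paired analysis was possible because each phenotype has 1 library. Depth limits Itga3 and Itgb3, which had 21 and 7 UMIs in neurosphere cells.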
